A study of Mus musculus with 6 samples.

Results

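The replication-dependent histone genes are the clustered genes whose symbols start, or started under the older nomenclature, with Hist1h, Hist2h, Hist3h or Hist4h. Their symbols were found through the RefSeq transcript that the array design gives for each probe. The annotation of this name holds 70 genes, 56 of them on chromosome 13, 10 on chromosome 3, 3 on chromosome 11 and 1 on chromosome 6. Of these, 48 have a probe on the array, among 20284 genes with a named probe, and they are measured by 52 probes. By type, 6 genes of the linker histone H1 have a probe, 14 of H2A, 11 of H2B, 8 of H3 and 9 of H4.

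RNA of whole kidney was compared between aged male mice, 20 months old, and young male mice, 2 months old, of the inbred laboratory strain C57BL/6. No genetic change or treatment is named for either age. There were 3 arrays per age, each carrying its own RNA preparation, and the question was which genes differ in expression between the ages. Whether the preparations are of different mice is not stated, and the p-values therefore reflect only how these samples vary, which may be technical.

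Nucleosomes consist of the core histones H2A, H2B, H3 and H4, and the linker histone H1 binds the DNA between them. As a rule the clustered genes supply these proteins during S phase, when the genome is copied. Their mRNAs mostly end in a conserved stem-loop in place of a poly(A) tail. The family is taken by name here, so it also holds forms known from testis or olfactory neurons, such as H1f6, H2bc1 and H2bc21. A set of replication-independent histone genes outside this family serves resting cells. Adult kidney is mostly made of cells that do not divide. How first-strand cDNA was primed is not given in the sources used here. The cDNA was then copied with Cy3 by Klenow enzyme and random nonamers, and both strands can be labelled in this way. Many histone genes of a type are nearly identical, and no probe sequences were used here, so a probe may also detect other copies of its gene.

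All 12 markers of kidney cells on a list of tubule and podocyte genes passed the filter on low signal. Of these, 0 passed the test of age in limma, with 1 at an unadjusted p under 0.05. Their log2 differences, aged minus young, ran from -0.73 to 0.37. All 6 arrays lay on 1 slide, aged ones in slide row 2 and young ones in slide row 1, so a difference by row cannot be told apart from one by age. The share of probes well above background was 62.9%, 55.7% and 46.3% on aged arrays 1, 2 and 3 and 72.9%, 69.0% and 55.3% on young arrays 1, 2 and 3. It was lowest on array 3 of each age, and lower on the aged array in each of the 3 slide columns. Precision is limited by the 3 arrays per age.

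Levels are given below as log2 processed signal minus the 75th percentile of the array, so 0 is the level of that percentile and a difference of 1 is a 2-fold change. Differences are aged minus young. Testing required a probe well above background on each of the 3 arrays of an age, aged or young, and 36 of the 48 histone genes with a probe met this. Of the others, 12 had a probe that did not reach this level, and the remaining 22 of the 70 had no probe.

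H4c11 and H4c14, which encode the core histone H4, fell in aged kidney, and so did H2bc21, an H2B gene. Of the tested histone genes 0 rose, against 1.98% of all genes. In all, 3 of the 36 tested genes (8.33%) passed an adjusted p of 0.05 in limma, against 3.37% of all 14549 tested genes. All 3 were lower in aged kidney, where 1.40% of all genes passed in that direction. With every probe tested on its own, 1 histone gene passed, H4c11, against 2.09% of all probes. Without adjustment, 8 histone genes had a p under 0.05, 7 lower and 1 higher, against 17.1% of all genes. Among H4 genes 2 of 8 passed (25.0%), and among the other types 1 of 28 (3.57%), which is near the share of all genes. Whether H4 differs from the other types as a group was not tested.

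Differences were below 0 in 20 of the 36 tested histone genes, against 52.8% of all genes. The median difference was -0.05 over the 36 tested histone genes and -0.01 over all tested genes. It was -0.47 for the 8 tested H4 genes (-0.31 for the 7 above background on all 6 arrays), -0.16 for 6 H3 genes, -0.15 for 4 H1 genes, 0.04 for 11 H2A genes and 0.09 for 7 H2B genes. The H4 median was below 0 under every alternative tried, between -0.50 and -0.31. The H2A median was -0.04 without aged array 3 and -0.02 with normexp background correction, and the H2B median was -0.01 without aged array 3, so the sign of neither median held under all alternatives.

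**Figure D1:**
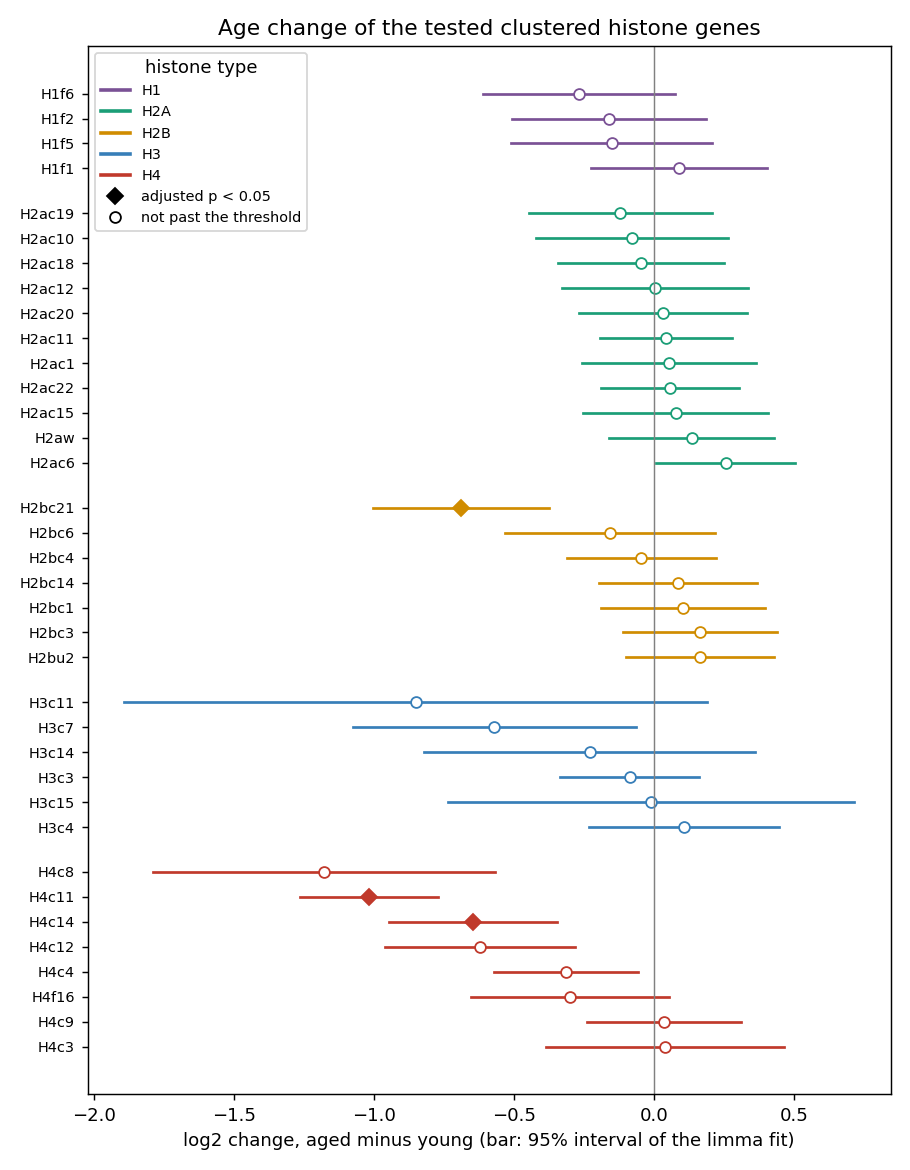
Log2 difference, aged minus young, of the 36 tested histone genes (1 row each, grouped and coloured by histone type), with the 95% interval of the limma fit as a bar. Filled diamonds mark the 3 genes past an adjusted p of 0.05. They are H2bc21, H4c11 and H4c14, and most H2A and H2B genes lie close to 0.

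The plot of all tested members shows 5 of 8 H4 intervals that lie wholly below 0, 1 of 7 H2B intervals and 1 of 6 H3 intervals, where 17.1% of all genes had an unadjusted p under 0.05 in either direction. One of these H4 intervals is that of H4c8, which was tested only through the young arrays, where it is higher. In H2A all 11 intervals stayed between -0.45 and 0.51.

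H4 is the core histone with the most conserved protein sequence, and many separate genes are known to encode the same protein. H4c11 (Hist1h4j, chromosome 13) had levels of -1.44, -1.25 and -1.40 on aged arrays 1, 2 and 3, against -0.28, -0.35 and -0.42 on young arrays 1, 2 and 3. The groups were well apart, and each age varied little. The level averaged -1.37 ± 0.10 in aged and -0.35 ± 0.07 in young kidney (SD, n = 3 each), 0.494 times the young level. The difference was -1.02 ± 0.11 (SE, limma, adjusted p = 0.0047), and it was -1.16, -0.90 and -0.98 within slide columns 1, 2 and 3. H4c11 is the histone gene with the smallest p, and it lost its call in 1 of 17 alternatives, where no filter on dim probes was used (adjusted p = 0.0664).

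H4c14 (Hist2h4, chromosome 3) measured 1.80, 2.19 and 1.85 on the aged arrays, against 2.61, 2.53 and 2.64 on the young arrays. All aged values lay below all young ones. H4c14 fell by 0.64 ± 0.13 on the log2 scale (SE, limma, adjusted p = 0.0423). A dimmer probe of the same gene gave -3.61, -3.32 and -2.89 on the aged arrays and -3.20, -3.21 and -3.65 on the young arrays, with overlapping ages and a difference of 0.08 ± 0.22 (SE). When the probes of a gene were averaged, the difference was -0.28 (limma, adjusted p = 0.332). The call of H4c14 thus rests on its brighter probe, and it was also lost in 9 of the other 16 alternatives, among them those without aged array 1 or 3 or any single young array (limma, adjusted p between 0.0576 and 0.150).

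H4c8 (Hist1h4h) showed the largest difference of the tested histone genes and did not pass the threshold. Its levels were -4.43, -5.00 and -5.46 on the aged arrays and -3.45, -3.89 and -4.02 on the young arrays, so the ages did not overlap. The difference was -1.18 ± 0.26 (SE, limma, adjusted p = 0.0594). This gene is dim: it was well above background on 3 young arrays and on 1 aged array, and it entered the test only through the young arrays. It passed under 6 of 16 alternatives, among them quantile normalisation (limma, adjusted p = 0.0403) and leaving out aged array 1 (adjusted p = 0.0167).

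H4c12 (Hist1h4k) measured 1.36, 1.76 and 1.82 on the aged arrays and 2.27, 2.16 and 2.37 on the young arrays. Again the ages were apart, with a difference of -0.62 ± 0.15 (SE, limma, adjusted p = 0.0692). Its second probe gave -0.61 ± 0.13 (SE), so both probes showed the same size of difference. H4c12 passed when signal on all 6 arrays was required (limma, adjusted p = 0.0407) and with a trended, robust variance (adjusted p = 0.0132).

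H4c4 (Hist1h4d) was at 0.49, 0.53 and 0.75 on the aged arrays and at 0.92, 0.91 and 0.88 on the young arrays, a small gap between ages that did not overlap. The difference was -0.31 ± 0.11 (SE, limma, adjusted p = 0.203). H4f16 (Hist4h4, on chromosome 6 away from the large clusters) differed by -0.30 ± 0.15 (limma, adjusted p = 0.367), with overlapping ages.

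Both remaining H4 genes lay near 0. H4c9 (Hist1h4i) measured 4.02, 4.02 and 4.32 on the aged arrays and 4.12, 4.04 and 4.09 on the young arrays, with a difference of 0.04 and a 95% interval of -0.24 to 0.31. Its second probe read 1.20, 1.15 and 1.36 on the aged arrays and 1.07, 1.07 and 0.99 on the young arrays. Every aged value of this probe was above every young value, with a difference of 0.20 ± 0.11 (SE). H4c3 (Hist1h4c) read -1.92, -1.83 and -1.77 on the aged arrays, against -1.66, -1.67 and -2.31 on the young arrays. The aged values lay between the young ones, and the difference was 0.04 ± 0.18 (SE).

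Counted over single arrays, 7 of the 8 tested H4 genes were well above background on all 6 arrays, and 4 of these 7 (H4c11, H4c14, H4c12 and H4c4) had aged values wholly below the young ones. Of all 13151 genes above background on all 6 arrays, 10.5% were apart in that direction, and of all tested genes 11.5%. H4c8 was apart too, but the filter on low signal favours a lower aged value for a gene that passed only through the young arrays. Of the other histone types, 1 of 25 genes above background on all 6 arrays had aged values wholly below the young ones.

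**Figure D2:**
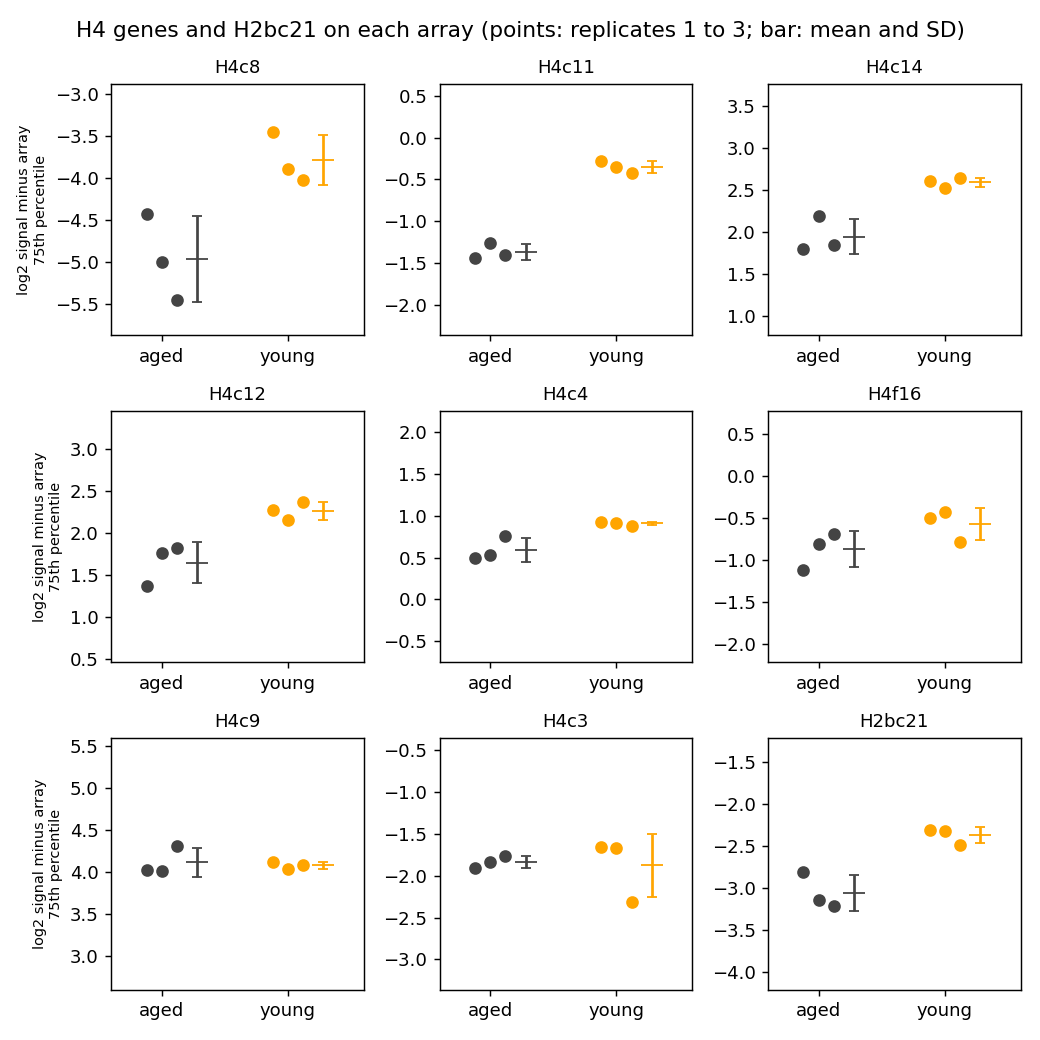
Level of the 8 tested H4 genes and of H2bc21 on each array (log2 processed signal minus the 75th percentile of the array), aged left and young right, with 1 point per array and the mean and SD of 3 arrays beside them. Aged points lie below all young points for H4c8, H4c11, H4c14, H4c12, H4c4 and H2bc21, and the ages overlap for H4f16, H4c9 and H4c3.

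The panels by gene all span the same number of log2 units, so the gaps can be compared by eye. Summed over the 8 H4 genes, the signal was 24.9, 26.9 and 30.1 times the 75th percentile on aged arrays 1, 2 and 3 and 32.1, 30.5 and 31.8 times on young arrays 1, 2 and 3. The sum is dominated by the bright probe of H4c9, which differed little. In whole-kidney RNA, fewer cells that make a histone mRNA and less of that mRNA per cell cannot be told apart.

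H4c11 and H4c12 are next to each other on chromosome 13. H2bc14, an H2B gene, stands beside H4c11, and H2ac15, an H2A gene, beside H4c12. The row of neighbours thus runs H2bc14, H4c11, H4c12 and H2ac15, with differences of 0.09, -1.02, -0.62 and 0.08. H2bc14 had a 95% interval of -0.20 to 0.37 and H2ac15 one of -0.25 to 0.41, while H4c11 had one of -1.26 to -0.77. The promoters of these 4 genes are shown because adjacent genes of one cluster differed in their measured change. They are from RefSeq, build GRCm38.p6, each 250 bases before to 50 bases after the annotated start, 5′ to 3′ on the strand of the gene. Capitals mark the letters of the motifs that were searched, on either strand.
H2bc14, chr13:21721794-21722093 (plus strand): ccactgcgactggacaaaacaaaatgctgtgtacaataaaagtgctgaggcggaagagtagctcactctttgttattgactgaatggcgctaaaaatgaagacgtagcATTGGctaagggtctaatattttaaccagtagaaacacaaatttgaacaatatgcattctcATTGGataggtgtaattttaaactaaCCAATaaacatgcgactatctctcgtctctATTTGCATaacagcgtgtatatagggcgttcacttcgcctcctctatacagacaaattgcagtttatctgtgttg
H4c11, chr13:21734784-21735083 (plus strand): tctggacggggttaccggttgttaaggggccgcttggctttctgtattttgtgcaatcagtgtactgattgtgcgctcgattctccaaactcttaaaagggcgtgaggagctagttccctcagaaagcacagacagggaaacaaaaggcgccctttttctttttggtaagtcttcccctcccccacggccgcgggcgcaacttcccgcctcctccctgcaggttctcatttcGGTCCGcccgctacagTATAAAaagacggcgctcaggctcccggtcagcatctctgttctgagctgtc
H4c12, chr13:21750504-21750803 (minus strand): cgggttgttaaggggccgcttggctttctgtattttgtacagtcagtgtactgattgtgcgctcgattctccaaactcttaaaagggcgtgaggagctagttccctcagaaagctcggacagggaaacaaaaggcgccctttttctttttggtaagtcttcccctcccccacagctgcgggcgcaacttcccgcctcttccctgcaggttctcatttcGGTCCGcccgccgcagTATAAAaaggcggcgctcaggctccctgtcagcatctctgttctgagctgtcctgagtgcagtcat
H2ac15, chr13:21753863-21754162 (minus strand): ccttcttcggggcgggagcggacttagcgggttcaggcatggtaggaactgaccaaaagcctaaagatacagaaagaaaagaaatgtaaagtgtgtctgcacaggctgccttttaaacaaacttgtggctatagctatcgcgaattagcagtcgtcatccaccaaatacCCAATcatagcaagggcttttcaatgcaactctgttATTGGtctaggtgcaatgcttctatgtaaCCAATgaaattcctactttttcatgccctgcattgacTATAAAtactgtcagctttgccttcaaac

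Histone promoters are known for a TATA box, CCAAT boxes bound by the factor NF-Y and, in H2B genes, an octamer bound by Oct-1, while H4 promoters carry an element bound by the factor HINFP that holds the letters GGTCCG. The TATA box letters TATAAA were found in 55.6% of 63 promoters of the histone genes, against 13.6% of 32851 promoters of all genes. The letters CCAAT were in 85.7% of the histone promoters, against 37.4% of all promoters. It was in every one of the 51 promoters of H1, H2A, H2B and H3 genes that were matched and in 3 of 12 H4 promoters (25%).

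The octamer ATTTGCAT was in 7 of 18 H2A and 7 of 17 H2B promoters and in 0 of the H1, H3 and H4 promoters, against 1.74% of all promoters. TTTCGCGC, a form of the E2F site, was in 5 H2A and 4 H2B promoters, or 14.3% of the histone promoters, against 0.323% of all. GGTCCG was in 11 of 12 H4 promoters (91.7%), in 1 H2B and 1 H3 promoter, and in 8.25% of all promoters. This last motif was added after the sequences had been read. No matches of different motifs overlapped in the 4 promoters printed.

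The promoters of H4c11 and H4c12 shared 274 of 286 aligned bases (95.8%). Both hold GGTCCG and TATAAA and lack CCAAT. The promoter of H4c9, whose difference was 0.04, has the same combination, and that of H4c8 holds GGTCCG alone. All 7 tested H4 genes with a promoter in the table hold GGTCCG, including H4c3, whose difference was also 0.04. Relative to the annotated start, TATAAA begins at -2 in H4c11, at -16 in H4c12 and at 21, after the start, in H2ac15. These are matches of letters, and whether they act as TATA boxes was not tested. Promoters were matched for 62 of the 70 histone genes, and H2ac14, H2af-ps2, H2bc21, H2bc4, H2bu1-ps, H3c1, H3c7 and H4c14 were not among them.

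**Figure D3:**
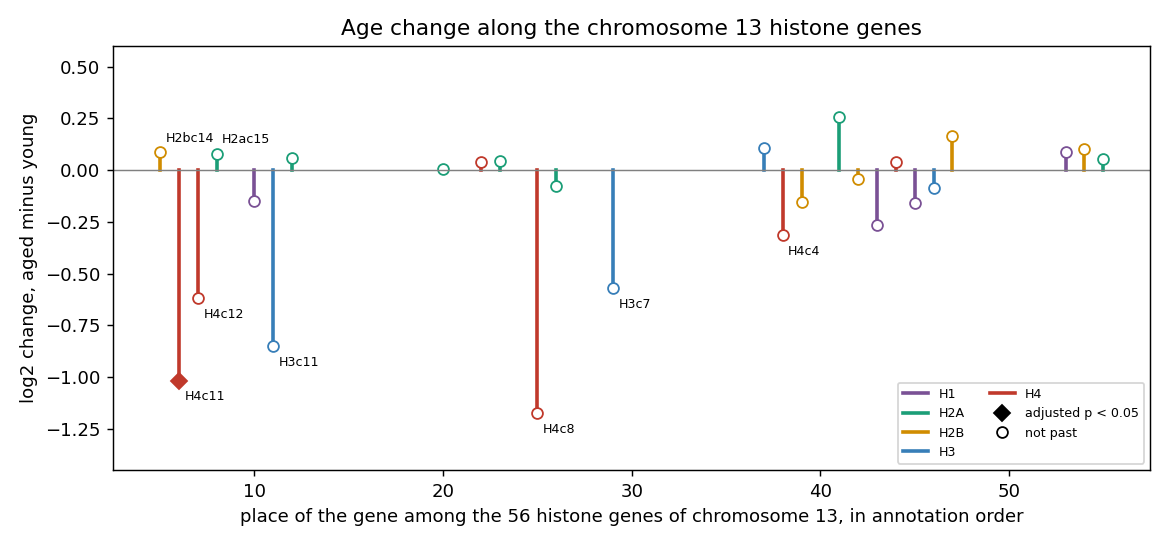
Log2 difference, aged minus young, of the tested histone genes of chromosome 13, placed by their order among the 56 histone genes of that chromosome and coloured by histone type; the filled diamond marks the 1 gene past an adjusted p of 0.05. H4c11 and H4c12 stand below 0 between H2bc14 and H2ac15, and H4c8, H3c11, H3c7 and H4c4 lie at other places in the row.

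In this row H4c8 and H3c7 each stand apart from H4c11 and H4c12. Most tested genes between them lay near 0, but H3c11, at -0.85, lies there too. H4c14 lies on chromosome 3, where its near neighbour H3c14 differed by -0.23 ± 0.26 (SE).

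H3 genes encode the core histone whose tail carries many regulatory marks. Of the 6 tested H3 genes, 0 passed the threshold in limma and 1 had an unadjusted p under 0.05. H3c7 (Hist1h3f) measured -2.67, -3.53 and -3.40 on the aged arrays and -2.61, -2.54 and -2.74 on the young arrays. Aged arrays 2 and 3 were low, and aged array 1 lay within the young values. The difference was -0.57 ± 0.22 (SE, limma, adjusted p = 0.2385). Leaving out aged array 1 gave -0.83 and an adjusted p of 0.0154 in limma.

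H3c11 (Hist1h3i) was dim, well above background on 2 aged and 3 young arrays. It measured -4.14, -4.80 and -6.15 on the aged arrays and -4.06, -3.99 and -4.48 on the young arrays, so the ages overlapped and the aged values were widely spread. The difference was -0.85 ± 0.45 (SE, limma, adjusted p = 0.386). H3c4 (Hist1h3d) and H3c15 (Hist2h3c2), the H3 genes with the highest signals, differed by 0.11 ± 0.15 and -0.01 ± 0.31 (SE). H3c15 read 0.06, 0.28 and 0.81 on the aged arrays, against 0.42, 0.99 and -0.23 on the young arrays, so each age spread widely.

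H2A and H2B pair with each other in the nucleosome, and many of their genes lie side by side. H2A genes gave 0 calls among 11 tested in limma, with 1 at an unadjusted p under 0.05. Differences ran from -0.12 to 0.26, and 8 of 11 were above 0, against 6862 of all 14549 tested genes. H2ac19 (Hist2h2aa2) and H2ac12 (Hist1h2ah), the H2A genes with the highest signals, differed by -0.12 ± 0.14 and 0.00 ± 0.14 (SE).

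H2ac6 (Hist1h2ac) was the H2A gene with the largest difference, and the only histone gene above 0 with an unadjusted p under 0.05. Its levels were -4.82, -4.78 and -4.73 on the aged arrays and -4.99, -5.17 and -4.94 on the young arrays. The ages were apart by a narrow margin at a low signal, and the difference was 0.26 ± 0.11 (SE, limma, adjusted p = 0.277). Its probe was well above background on 2 aged and 3 young arrays. H2aw (Hist3h2a) differed by 0.14 ± 0.13 (SE). H2ac15 has 2 probes that differed in sign, 0.08 and -0.12, both with overlapping ages.

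H2A levels moved with the array more than with age. The median deviation of the 11 genes from their own means was -0.08, -0.04 and 0.15 on aged arrays 1, 2 and 3 and -0.03, -0.06 and 0.05 on young arrays 1, 2 and 3. Array 3 was highest within each age, and it was also the dimmest array of each age, with a 75th percentile of 2702 in aged and 2892 in young kidney, against 4061 to 4498 on the other arrays. The part of array brightness in this was not tested. For the 8 H4 genes the same deviation was -0.33, -0.14 and -0.07 on the aged arrays and 0.27, 0.23 and 0.24 on the young arrays, so the ages did not overlap. These genes include H4c8, for which the filter on low signal favours a lower aged value. The deviation without H4c8 was not computed.

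Of 7 tested H2B genes, H2bc21 (Hist2h2be) fell. In mice it encodes an H2B variant known from olfactory sensory neurons. Its levels were -2.81, -3.14 and -3.22 on the aged arrays, against -2.31, -2.32 and -2.49 on the young arrays. Every aged value was below every young value. H2bc21 averaged -3.06 ± 0.21 in aged and -2.37 ± 0.10 in young kidney (SD, n = 3 each), and the difference was -0.69 ± 0.14 (SE, limma, adjusted p = 0.0399). Within slide columns 1, 2 and 3 it was -0.51, -0.82 and -0.73. The call was lost in 10 of 17 alternatives, with adjusted p up to 0.174 in limma. Among these were the fits without aged array 2 or 3 or any single young array.

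The neighbours of H2bc21 on chromosome 3, H2ac20 and H3c15, differed by 0.03 and -0.01. The other 6 tested H2B genes lay between -0.15 and 0.17. H2bc1 (Hist1h2ba), known as the testis form of H2B, and H2bc4 (Hist1h2bc) had the highest H2B signals and differed by 0.10 ± 0.13 and -0.04 ± 0.11 (SE). Whether other H2B copies add to the signals of these probes was not tested. H2bu2 (Hist3h2ba) measured -1.34, -1.40 and -1.33 on the aged arrays and -1.41, -1.48 and -1.69 on the young arrays. Its ages did not overlap, and the difference of 0.17 ± 0.11 (SE) did not pass the threshold. H2bc3 (Hist1h2bb) differed by 0.17 ± 0.12 (SE) and was well above background on 2 aged and 3 young arrays.

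By the brightest probe of each gene, aged values wholly above the young ones were seen for 2 of the 36 tested histone genes, H2ac6 and H2bu2, against 10.4% of all genes. The linker histone genes gave 0 calls among 4 in limma, and 0 had an unadjusted p under 0.05. H1f6 (Hist1h1t), the testis form, differed by -0.27 ± 0.15, H1f2 (Hist1h1c) by -0.16 ± 0.15, H1f5 (Hist1h1b) by -0.15 ± 0.15 and H1f1 (Hist1h1a) by 0.09 ± 0.14 (SE), all with overlapping ages.

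Of the 12 histone genes with a probe too dim to test, H2ac8 was well above background on 1 aged and 0 young arrays. Its spot on aged array 1 was left out as an outlier. The probes of H2ac21 and H2bc22, above background on 0 arrays of either age, read higher on the aged arrays by 1.20 and 1.41. Such readings at background level are not taken as expression. No side is therefore given for H2ac8, whose aged values were also higher. The reverse, some young and 0 aged arrays above background, held for H1f3, H2ac4, H2bc8, H2bc18, H2bc23, H3c1 and H3c8. Over all probes, too, fewer were above background on the aged array of each slide column. The share of all probes with this pattern was not counted. Mean differences were 0.00 for H2ac4, 0.35 for H2bc18 and 0.01 for H3c1, and below 0 for the others. No side is given for these genes. H2bc23, above background on 0 aged and 2 young arrays, measured -7.50, -7.63 and -5.99 on the aged arrays and -5.14, -2.70 and -7.34 on the young arrays. The ages overlapped, and young array 2 stood far above the rest, so no side is given. No test was made for these genes.

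Genes that act around histone synthesis were followed on the same arrays. Markers of S phase and proliferation fell in 7 of 22 tested genes and rose in 0, against 1.40% and 1.98% of all genes. Their median difference was -0.22. Cdk1, the mitotic kinase, differed by -1.14 ± 0.16 (SE, limma, adjusted p = 0.0126). Ccnb1, the cyclin B1 that activates it, differed by -1.35 ± 0.22 (adjusted p = 0.0227, limma). Rrm2, a subunit of the enzyme that makes deoxynucleotides, differed by -0.90 ± 0.15 and Mki67, the Ki-67 proliferation antigen, by -0.90 ± 0.15 (limma, adjusted p = 0.0231 and 0.0240). Top2a, Ccna2 and Uhrf1 were the other 3. Ccnb1 and Top2a were well above background on 2 aged and 3 young arrays. They thus entered the test only through the young arrays, where they are higher, and the filter favours a lower aged value for such genes. The same holds for Cdc6 and Ccne1, which did not pass but count in the median.

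The summed signal of this list was 20.4 to 20.8 times the 75th percentile in aged and 21.1 to 24.3 times in young kidney. The 6 subunits of the replication helicase on the list did not pass. Mcm2, Mcm3, Mcm4 and Mcm5 differed by -0.17, -0.22, -0.21 and -0.22, and Mcm6 and Mcm7 by 0.06 and 0.02, while Pcna, the sliding clamp of DNA polymerase, differed by -0.07. These 7 genes were chosen after their values were seen. The part of proliferating cells in the lower H4 levels was not tested.

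Among histone chaperones, which carry new histones to DNA, 1 of 16 tested genes passed, against 3.37% of all genes. Asf1b, a chaperone of H3 and H4 that is made in dividing cells, fell by 0.74 ± 0.13 on the log2 scale (SE, limma, adjusted p = 0.0314). The list had a median of -0.15, and its summed signal was 44.9 to 49.6 in aged and 51.1 to 53.0 in young kidney, in units of the 75th percentile. Mms22l, its brightest gene, weighed most in this sum and differed by -0.29 ± 0.11 (SE, limma, adjusted p = 0.244). Of the genes for histone transcription and processing of the 3′ end, 1 of 16 passed, against the same 3.37%. E2f1, a factor that activates S phase genes, fell by 0.65 ± 0.11 on the log2 scale (SE, limma, adjusted p = 0.0244). The list's median was -0.03.

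Hinfp, the factor of the H4 element, differed by 0.24 ± 0.17, Npat, the coactivator of histone genes, by -0.05 ± 0.18, and Slbp, which binds the stem-loop, by -0.03 ± 0.12 (SE). These 3 genes are given for their known roles and were chosen after their values were seen. For histone mRNA decay, 0 of 7 tested genes passed in limma and 0 had an unadjusted p under 0.05. Eri1, a nuclease that trims the stem-loop, had the smallest p of this list, with a difference of -0.35 ± 0.20 (SE), followed by Tut7, a uridylating enzyme, at 0.18 ± 0.11.

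Replication-independent histone genes gave 0 calls among 11 tested in limma, with 2 at an unadjusted p under 0.05. Of the 11, 10 lay below 0, against 52.8% of all genes, with a median of -0.06. Cenpa, the H3 variant of centromeres, differed by -0.70 ± 0.15 (SE, limma, adjusted p = 0.0553), with ages that did not overlap. H1f8, the oocyte linker histone, differed by -0.62 ± 0.22 (limma, adjusted p = 0.211).

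**Figure D4:**
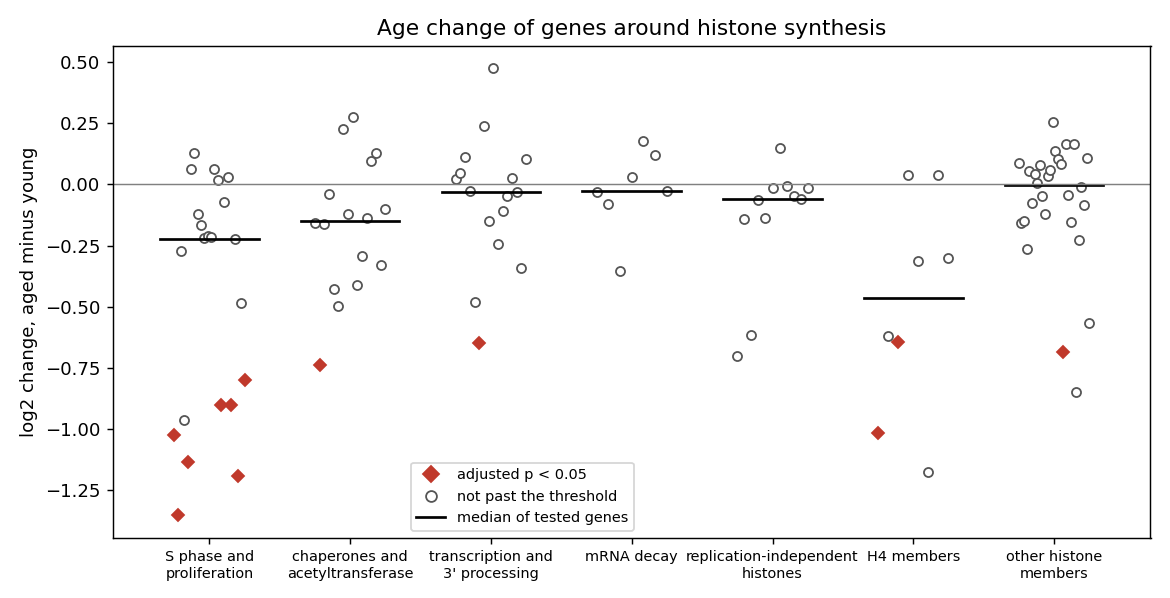
Log2 difference, aged minus young, of each tested gene in 5 lists around histone synthesis, beside the 8 tested H4 genes and the 28 other tested histone genes, with 1 point per gene and a line at the median. Filled diamonds are past an adjusted p of 0.05. The H4 median lies at -0.47, the S phase and proliferation median at -0.22 and the other medians between -0.15 and 0.

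In the plot by list the S phase list and the H4 genes hold the most points below -0.5. Markers of other cells also moved with age. Lymphocyte markers rose in 7 of 10 tested genes, against 1.98% of all genes, with a median of 1.04. Their summed signals were 9.78 to 11.1 in aged and 1.75 to 2.10 in young kidney. Jchain, the joining chain of secreted antibodies, had the smallest p of these markers, with a difference of 4.12 ± 0.17 (SE, limma, adjusted p = 0.00018). Its signal weighed most in the aged sums. Pou2af1, Mzb1 and Cd2 rose by 2.70, 1.85 and 1.16.

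Macrophage and dendritic cell markers rose in 3 of 11 tested genes, Itgax by 0.99, Flt3 by 0.72 and C1qc by 0.68. The list's median was 0.57, and its summed signal was 60.8 to 70.5 in aged and 47.1 to 56.5 in young kidney. Itgam, its brightest gene, weighed most in this sum and differed by 0.16 ± 0.13 (SE, limma, adjusted p = 0.563). Erythroid markers, which include genes of cells that divide while they mature, gave 0 calls among 7 in limma, with 1 at an unadjusted p under 0.05. Klf1 differed by 0.61 ± 0.23 and Tfrc by -0.23 ± 0.10 (SE). The summed signals of the list were 50.2 to 59.5 in aged and 59.1 to 63.3 in young kidney. Hba-a1, the brightest of these genes, weighed most in them and differed by -0.17 ± 0.12 (SE). The part of these cell types in the histone values was not tested.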

How the data were processed

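Kidney RNA was measured on single-colour Agilent arrays, 3 aged and 3 young. Per the file headers, the authors' signal intensity came from Agilent Feature Extraction 11.5.1.1 on array design 028005 as processed signal, background-subtracted within each array on a linear scale. The values that the authors deposited as processed are on a log2 scale: on each array 99.8% to 99.9% of probes lay within 0.01 of the log2 signal minus the array's 75th percentile.

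Control spots and outlier spots were left out, and spots of a probe were averaged. Each array's 75th percentile was subtracted from its log2 signal. Probes had to be well above background on every array of an age, and each gene's brightest such probe, by its mean over 6 arrays, stood for it. Symbols came from RefSeq (GRCm38.p6), which differs from the build of the array design. Of 55681 probes, 26762 had 1 gene, 28919 had none and 0 had several.

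Ages were compared with limma (lmFit and eBayes, two-sided) with Benjamini-Hochberg adjustment over all 14549 tested genes and a threshold of 0.05. The members, lists and tests were chosen with earlier results of these data known. Named were the members past the threshold, of each type the 2 with the highest signal and the 2 with the largest difference, members tested through 1 age, members whose probes differ in sign, and the 4 list genes with the smallest p (2 where none passed). Others, such as H4c12, H4c4 and the remaining H4 and H1 genes, were chosen after their values were seen.

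Alternatives were median centring, quantile normalisation, normexp (offset 50, on the median spot signal), the authors' values, other filters on dim probes, outlier spots kept, probes averaged, other variance models, the replicate block, leaving out each array, and other call rules. On simulated data for the comparison of ages with 14508 genes, 10.4% of added log2 changes of 0.5, 73.1% of those of 1 and 93.9% of those of 2 were recovered, with 8 false calls among 126. Data simulated without changes gave 0 calls. The software used was R 4.3.3, limma 3.58.1 and version 1.17.8 of data.table, and Python 3.11.15 with matplotlib 3.10.9.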

Additional observations from a re-analysis of the deposited data

How the results depend on the processing

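The 3 calls among histone genes became 0 with no filter on dim probes, 1 when a 2-fold change was also required, 1 when every probe was tested on its own and 8 without adjustment. Leaving out 1 array gave 1 to 4 calls. It gave 4 when aged replicate 1 was dropped, 2 for aged replicate 2 and 1 for aged replicate 3 and for each young replicate. All of these calls were lower in aged kidney, except 1 of the 8 without adjustment. The count over all genes, 491, became 801 with median centring (433 higher, 368 lower), 304 with normexp (214 higher, 90 lower), 16 with no filter, 203 with a 2-fold change and 2493 without adjustment. Leaving out 1 array gave 141 to 922 calls over all genes. The median difference of histone genes stayed between -0.10 and 0.00.

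The replicate numbers, which are also slide columns, were not treated as pairs in the main fit. Same-numbered aged and young arrays correlated in their deviations at 0.06, -0.09 and 0.10. Arrays of different number correlated at -0.12 to 0.07, so the value for array 3 of each age was the highest. With the replicate block, 266 genes and 2 histone genes (H4c11 and H4c8) passed.

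Over the named genes and all alternatives, 616 values kept their direction and side of the threshold, 76 lost the call, 14 gained it and 20 turned sign. Of the 17 alternatives, 7 ended the call of Asf1b, 8 that of E2f1, 5 that of Rrm2, 7 that of Mki67, 8 that of Flt3, 9 that of C1qc, 3 that of Cd2, 1 that of Itgax and 1 that of Cdk1, and 6 of 16 ended that of Ccnb1. The turned signs were of 7 histone genes close to 0. With normexp, H2ac12 was at -0.055, H2ac15 at -0.053, H2bc4 at 0.0088 and H3c15 at 0.131. H2ac12 was at -0.0059 with quantile normalisation and -0.0212 with array weights, H3c15 at 0.0336 with median centring and H2ac15 at -0.0212 with probes averaged. Leaving out 1 array put H2ac12 between -0.141 and 0.0938, H3c15 between -0.318 and 0.289, H2ac15 between -0.0386 and 0.164, H2bc4 between -0.129 and 0.0207, H2bc1 between -0.0025 and 0.198, H3c4 between -0.00016 and 0.221 and H4c9 between -0.0625 and 0.088. The causes were not tested. In the simulated data, genes changed by 0.5 were mostly missed, so such differences were mostly not detectable with 3 arrays per age.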
